A study of Mus musculus with 6 samples.

Results

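The unfolded protein and ATF4 response was described here through 10 genes, Atf4, Ddit3, Xbp1, Trib3, Chac1, Asns, Hspa5, Dnajb9, Pdia4 and Herpud1. They were found by their symbols among the 55335 genes of the count table, and all 10 had enough counts to be among the 16612 genes tested. The study asked how aging alters the aorta in model animals and in people, and its bulk RNA-seq compared young with aged mouse aorta. Both groups were wild-type C57BL/6 mice, described in the study's methods as male. The young group held 3 libraries at 6 weeks and the aged group 3 libraries at 6 months. Each library was taken here as 1 mouse, since the methods describe collecting vessel from each mouse, but the labels do not state it. The study's methods describe removing the fat around the vessel and freezing a short length of aorta, but RNA of fat cell markers was present in every library. Each library mixed all cells of the piece taken, and fewer cells of a type cannot be told apart from less RNA per cell. An age of 6 months is adulthood in a mouse, not old age, which limits the aged group as a model of late life.

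The endoplasmic reticulum (ER) folds proteins that a cell secretes or places in membranes. When unfolded proteins gather there, sensors on the ER membrane raise the transcription of chaperones and of genes that remove misfolded proteins, through ATF6 and the spliced form of XBP1, while the kinase PERK phosphorylates eIF2 and so favours the translation of ATF4. ATF4 is also reached by other eIF2 kinases that sense lack of amino acids or heme, so genes of amino acid supply are shared between these responses. Smooth muscle cells and fibroblasts of the aorta secrete much collagen and elastin, and the ER response has been studied there for that reason.

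The promoter windows of 4 of these genes are shown, which reach from upstream of the start site to a short way past it. Those of Hspa5, Herpud1 and Asns hold motifs known from the ER arm or the ATF4 arm, and that of Dnajb9 is shown as the gene with non-overlapping groups. The windows came from RefSeq's promoter table for GRCm38.p6, are 300 bases long on the strand of the gene, and were matched for 10 of 10 genes. Motifs were searched on both strands as letters, and positions are counted from 1 at the 5′ end of the window. The ER stress element (ERSE, CCAAT, then 9 bases of any kind, then CCACG) was found in 0.119% of 32851 windows, and among the 10 genes in Hspa5 only, at bases 186 to 204. A related element, ERSE-II (ATTGG, 1 base, CCACG), was in 0.0365% of windows and in Herpud1 only, at bases 199 to 209. The C/EBP-ATF element (TGATGNAA), to which ATF4 binds with C/EBP partners, was in 3.97% of windows and in Asns at bases 228 to 235, Chac1 at 58 to 65, Trib3 at 265 to 272 and Herpud1 at 139 to 146. The match in Trib3 lies 14 to 21 bases after the start site. The core of the unfolded protein response element (UPRE, TGACGTG) was in 2.01% of windows and in Hspa5 only, at bases 94 to 100. CCACG alone, which is also the end of both ER elements, was in 32.8% of windows and in 7 of the 10 genes. In Pdia4 it lies 36 to 40 bases after the start site. These matches describe letters in the windows and were not tested as sites. Capitals mark ERSE and the UPRE core in Hspa5 (chr2:34771840-34772139, plus strand), ERSE-II and the C/EBP-ATF element in Herpud1 (chr8:94386179-94386478, plus strand), the C/EBP-ATF element in Asns (chr6:7693160-7693459, minus strand), and CCACG in Dnajb9 (chr12:44210019-44210318, minus strand), which held none of the longer motifs.
Hspa5: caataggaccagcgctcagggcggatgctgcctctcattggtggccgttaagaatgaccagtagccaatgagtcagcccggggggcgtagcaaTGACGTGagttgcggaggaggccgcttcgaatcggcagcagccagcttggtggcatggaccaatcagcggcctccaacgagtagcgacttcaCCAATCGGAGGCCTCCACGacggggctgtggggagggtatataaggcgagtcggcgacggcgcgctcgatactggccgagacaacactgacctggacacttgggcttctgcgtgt
Herpud1: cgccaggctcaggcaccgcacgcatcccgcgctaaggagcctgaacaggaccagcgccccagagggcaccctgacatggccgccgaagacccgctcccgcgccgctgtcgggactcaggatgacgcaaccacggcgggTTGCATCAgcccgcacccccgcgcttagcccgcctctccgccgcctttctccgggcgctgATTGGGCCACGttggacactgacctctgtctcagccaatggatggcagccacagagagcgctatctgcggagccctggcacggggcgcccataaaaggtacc
Asns: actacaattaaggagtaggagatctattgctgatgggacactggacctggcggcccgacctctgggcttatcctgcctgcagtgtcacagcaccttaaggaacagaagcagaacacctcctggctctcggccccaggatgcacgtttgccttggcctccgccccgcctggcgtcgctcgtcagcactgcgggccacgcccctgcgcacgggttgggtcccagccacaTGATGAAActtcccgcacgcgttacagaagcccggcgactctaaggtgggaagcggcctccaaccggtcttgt
Dnajb9: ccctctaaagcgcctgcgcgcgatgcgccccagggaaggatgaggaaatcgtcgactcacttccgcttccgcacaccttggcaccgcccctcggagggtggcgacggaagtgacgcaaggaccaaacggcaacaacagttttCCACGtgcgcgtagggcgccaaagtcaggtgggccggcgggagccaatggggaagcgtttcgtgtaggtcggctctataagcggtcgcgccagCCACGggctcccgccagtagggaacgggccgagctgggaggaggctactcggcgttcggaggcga

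Reads counted on genes summed to between 31049632 and 45832185 per library, and mitochondrial genes took 14.9% to 21.2% of them in young and 23.1% to 30.4% in aged aorta. Smooth muscle markers (Myh11, Acta2, Tagln, Cnn1 and Smtn) were present throughout, at a sum of 30975 to 39240 in young and 27236 to 32644 in aged aorta, given as CPM (the count relative to library size after edgeR's TMM scaling). Young replicate 1 went against its description as male, since Xist, the RNA of the inactive X chromosome, reached 306 CPM there and at most 0.636 CPM elsewhere, and it also had the highest sum of 5 cardiac markers (274 against 82.6 to 111 CPM). Aged replicate 2 had the highest sum of 5 brown adipocyte markers (1873 against 74.6 to 569 CPM), and aged replicate 3 that of 5 endothelial markers (1563 against 317 to 461 CPM). A sum of 5 macrophage markers was 38.7 to 47.3 CPM in young and 57.01 to 152 CPM in aged aorta, and 5 of the 5 were higher at an unadjusted p below 0.05. Of the 5 smooth muscle markers 0 were higher in aged aorta and 2 were at an unadjusted p below 0.05, and of 5 fibroblast markers 4 were higher and 2 were at that limit. The 5 markers of B and plasma cells, which have a strong ER response, summed to 4.02 CPM or less, and Jchain and Mzb1 were at 0 in at least 1 library. The part of these cell types in the results was not tested. If each library is 1 mouse, p-values measure the spread between these mice, technical error included.

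None of the 10 genes passed the test between young and aged aorta once p was adjusted over all genes. Their mean was higher in aged aorta for 9 genes and lower for Xbp1, and the median log2 fold change was 0.32, where the median of all 16612 genes was 0.02 and 52.1% of genes were higher. With edgeR (quasi-likelihood F test, p adjusted by Benjamini-Hochberg), 0 of 10 genes had an adjusted p below 0.05, as did 0 of the 16612 (0%), with adjusted p between 0.383 and 0.941 for the 10. At an unadjusted p below 0.05, 1 of 10 genes was higher, Dnajb9, beside 5.56% of all genes, and 0 of 10 were lower, beside 4.82%. All aged libraries lay above all young ones for 1 of 10 genes, again Dnajb9, beside 7.74% of all genes, and all lay below for 0 of 10, beside 8.78%. DESeq2's Wald test called 0 of the 10 genes and 338 of 14955 genes (2.26%). Without aged replicate 2, edgeR called 110 genes but 0 of these 10, and without young replicate 1 it called 0 genes. The split of 9 higher and 1 lower was 8 and 2 without young replicate 1 or young replicate 2 and 7 and 3 without aged replicate 3. It was 5 and 5 on log2(FPKM + 1), with Atf4, Hspa5, Pdia4 and Herpud1 lower beside Xbp1, where the median of all genes was itself shifted to -0.12.

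**Figure D1:**
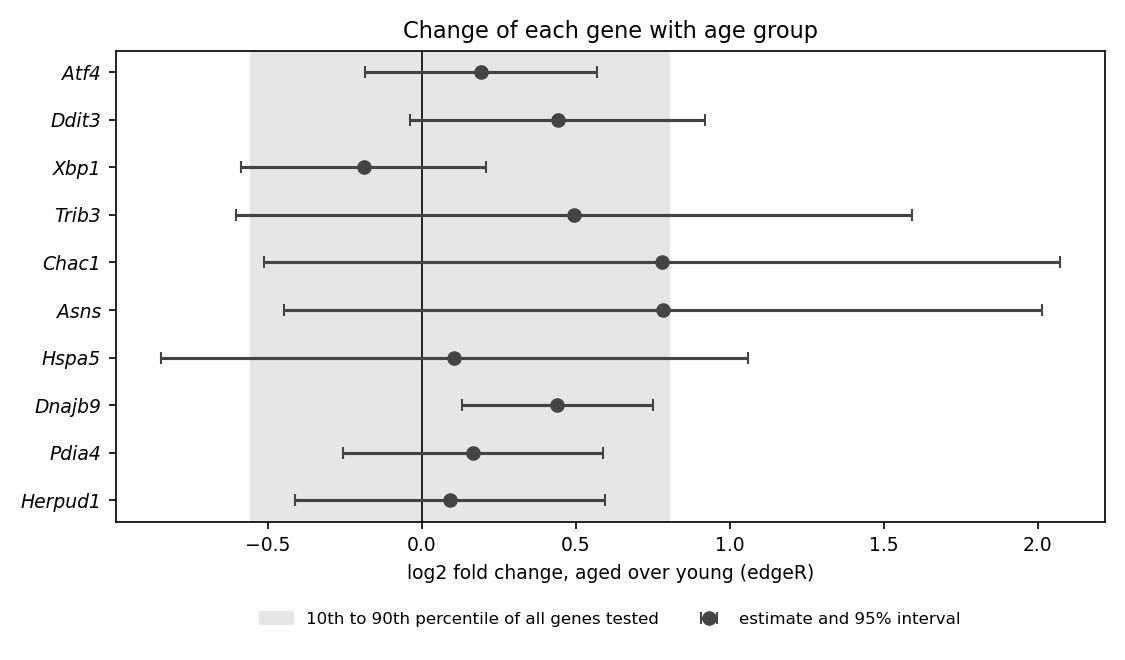
Log2 fold change of aged over young aorta for each gene (points), with the 95% interval from edgeR (bars) and the 10th to 90th percentile of all genes tested (grey band, -0.56 to 0.80). All points lie inside the band, and the interval stays clear of 0 for Dnajb9 only (0.13 to 0.75).

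Levels were compared between genes as FPKM, the count per length of gene and library size that the authors deposited. Hspa5 had the highest mean at 60.0 ± 21.7 FPKM (SD, n = 6 libraries), followed by Atf4 at 47.3 ± 5.62, Pdia4 at 38.9 ± 5.002 and Herpud1 at 30.9 ± 5.76. Ddit3 was at 17.2 ± 2.98, Dnajb9 at 10.7 ± 0.995 and Xbp1 at 9.34 ± 1.99. The 3 metabolic and stress targets of ATF4 formed the bottom of the order, with Asns at 1.51 ± 0.901, Trib3 at 1.04 ± 0.385 and Chac1 at 0.460 ± 0.198 FPKM (SD, n = 6 each). The ranges over the 6 libraries stayed apart between Herpud1 and Ddit3, between Ddit3 and Dnajb9, and between Xbp1 and Asns. The ranges of every other pair of neighbours overlapped. Within libraries Trib3 was nevertheless above Chac1 in 6 of 6, while Atf4 was above Pdia4 and Pdia4 above Herpud1 in 5 of 6, and Hspa5 above Atf4, Dnajb9 above Xbp1 and Asns above Trib3 in 4 of 6.

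**Figure D2:**
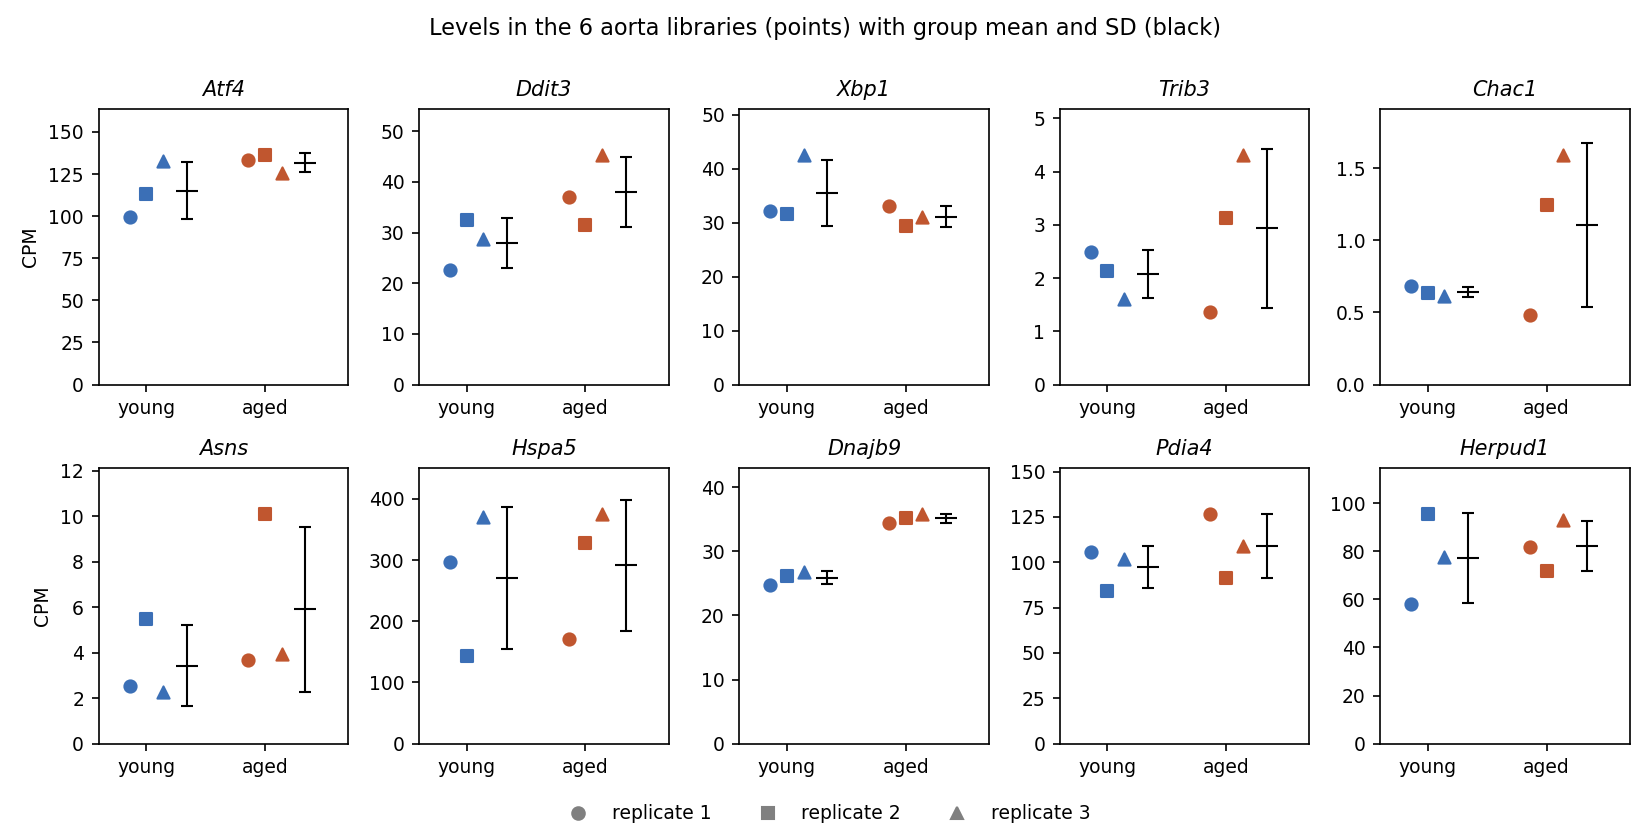
CPM of each gene in the 3 young (blue) and 3 aged (orange) libraries, with marker shape for the replicate number and the group mean with SD in black, all axes starting at 0. Dnajb9 is the only gene whose aged libraries (34.4 to 35.9 CPM) all lie above the young ones (24.7 to 26.8 CPM).

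Among the transcription factors, Ddit3 had the largest difference, Atf4 a smaller one and Xbp1 the opposite sign, and each overlapped between the groups. Atf4 (ENSMUSG00000042406, chr15:80255184-80257541 of GRCm38, plus strand) encodes the factor that the eIF2 arm controls mainly at translation, a step that RNA counts do not read. It was at 99.3, 113 and 133 CPM in young replicates 1, 2 and 3 and at 133, 136 and 125 CPM in aged replicates 1, 2 and 3. Young replicate 3 matched the aged libraries and young replicate 1 was the lowest. The means were 115 ± 16.9 and 132 ± 5.67 CPM (SD, n = 3 each), and the log2 fold change was 0.19 (SE, the standard error, 0.16, edgeR adjusted p = 0.684), which became -0.02 on log2(FPKM + 1). It was 0.11 without young replicate 1 and 0.32 without young replicate 3.

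Ddit3 (ENSMUSG00000025408, chr10:127290774-127296288, plus strand) encodes CHOP, a factor induced by ATF4 that favours cell death under lasting ER stress. It was at 22.7, 32.5 and 28.7 CPM in young and at 37.0, 31.6 and 45.4 CPM in aged replicates 1, 2 and 3. The overlap came from young replicate 2, which lay above aged replicate 2. The means were 28.0 ± 4.94 and 38.0 ± 6.96 CPM (SD, n = 3 each), with a log2 fold change of 0.44 (SE 0.20, 95% interval -0.037 to 0.92, edgeR adjusted p = 0.508). Its unadjusted p of 0.0658 from edgeR ranged from 0.0328 without aged replicate 2 to 0.214 without aged replicate 3, and was 0.178 without young replicate 1, where the log2 fold change was 0.32. On log2(FPKM + 1) the difference was 0.21, with an unadjusted p of 0.302 from limma. The last exon of Ddit3 overlaps the end of Mars, a tRNA synthetase gene on the other strand (chr10:127296221-127311786), and reads from the shared stretch cannot be told apart where counting ignores strand. A second identifier inside the same locus, which is named Ddit3 in the GENCODE M21 annotation, held 1 count in each library.

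Xbp1 (ENSMUSG00000020484, chr11:5520659-5525893, plus strand) encodes the factor whose mRNA is cut by the sensor IRE1, and a count per gene does not separate its spliced from its unspliced form. It was at 32.2, 31.6 and 42.6 CPM in young and at 33.1, 29.3 and 31.0 CPM in aged replicates 1, 2 and 3. Young replicate 3 alone stood above the others. The log2 fold change was -0.19 (SE 0.17, edgeR adjusted p = 0.709) and became -0.028 without that library. On log2(FPKM + 1) it was -0.36, with an unadjusted p of 0.0636 from limma, where the median of all genes was -0.12. As means, Xbp1 was at 35.5 ± 6.16 CPM in young and 31.1 ± 1.91 in aged aorta (SD, n = 3 each).

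In the edgeR fit the 3 targets of ATF4 and CHOP had the largest differences of the 10 genes, and they had the widest ranges between libraries. On log2(FPKM + 1), which shrinks low genes, they were at 0.17 for Chac1, 0.11 for Trib3 and 0.31 for Asns, and Xbp1 had the largest difference. Chac1 (ENSMUSG00000027313, chr2:119351229-119354381, plus strand) encodes an enzyme that degrades glutathione. It had 33, 22 and 21 counts in young and 16, 47 and 45 counts in aged replicates 1, 2 and 3, which is 0.681, 0.632 and 0.612 CPM against 0.481, 1.25 and 1.59 CPM. Aged replicates 2 and 3 lay above all young libraries and aged replicate 1 below them. The young libraries were close to each other (0.642 ± 0.0356 CPM) and the aged ones were not (1.11 ± 0.568 CPM, SD, n = 3 each). The log2 fold change was 0.78 (SE 0.55, edgeR adjusted p = 0.640).

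Trib3 (ENSMUSG00000032715, chr2:152337422-152344032, minus strand) encodes a pseudokinase that is induced by ATF4 and CHOP and feeds back on them. It was at 2.50, 2.13 and 1.60 CPM in young and at 1.35, 3.13 and 4.32 CPM in aged replicates 1, 2 and 3. The order of the aged libraries was that of Chac1, with replicate 1 below every young library and replicate 3 the highest of all. Its log2 fold change was 0.49 (SE 0.47, edgeR adjusted p = 0.721), with means of 2.08 ± 0.450 and 2.93 ± 1.49 CPM (SD, n = 3 each). Without aged replicate 1 the values were 0.84 for Trib3 and 1.14 for Chac1, and without aged replicate 3 they were 0.11 and 0.43, so single aged libraries set their size.

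Asns (ENSMUSG00000029752, chr6:7675169-7693254, minus strand) encodes asparagine synthetase, a classic gene of the amino acid response. It was at 2.54, 5.49 and 2.27 CPM in young and at 3.67, 10.1 and 3.93 CPM in aged replicates 1, 2 and 3. Replicate 2 was the highest library of each group, and aged replicate 2 had 4.44 times the level of young replicate 3, the widest range among the 10 genes. The means were 3.43 ± 1.79 and 5.90 ± 3.64 CPM (SD, n = 3 each), with a log2 fold change of 0.78 (SE 0.52, 95% interval -0.45 to 2.01, edgeR adjusted p = 0.625). It became 0.15 without aged replicate 2 and 1.31 without young replicate 2. The sum of 5 brown adipocyte markers (Ucp1, Cidea, Elovl3, Cox8b and Ppargc1a), most of it from Ucp1 and Cidea, was highest in the same 2 libraries, at 569 CPM in young replicate 2 and 1873 CPM in aged replicate 2, and at 74.6 to 244 CPM in the other 4. Elovl3 alone was low in young replicate 2, at 1.49 CPM. A sum of 5 general adipocyte markers (Adipoq, Plin1, Cidec, Lep and Fabp4) was highest in the same libraries. It was 1140 CPM in young replicate 2, 1837 CPM in aged replicate 2 and 377 to 856 CPM in the others. No marker of either list was at 0 in any library, and their part in the Asns values was not tested.

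**Figure D3:**
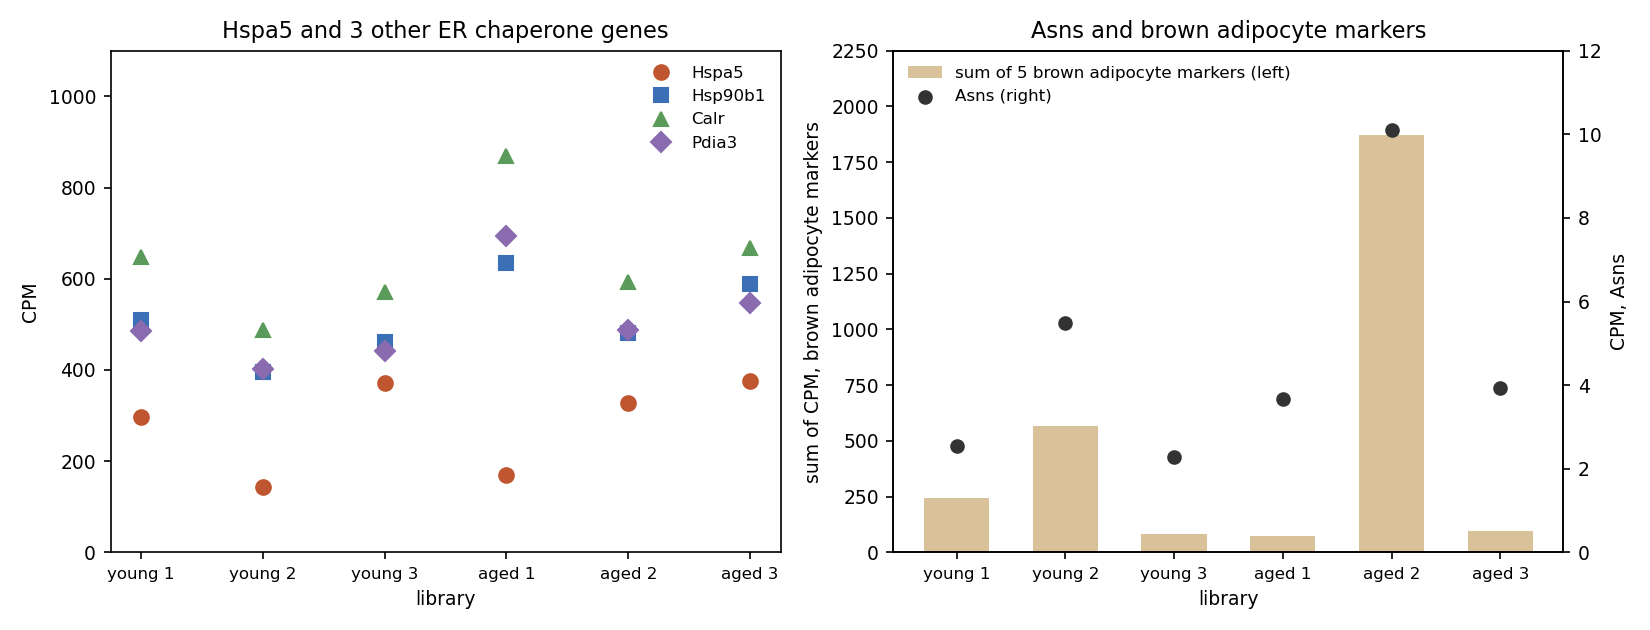
Left, CPM of Hspa5 and of 3 other ER chaperone genes in each library, for comparison between libraries within a gene since CPM is not corrected for length. Right, sum of CPM of 5 brown adipocyte markers (bars, left axis) and CPM of Asns (points, right axis), where aged replicate 2 is highest for both (1873 and 10.1 CPM).

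Of the ER chaperones among the 10 genes, Dnajb9 was the most even within groups and Hspa5 the least even. Dnajb9 (ENSMUSG00000014905, chr12:44205559-44210326, minus strand) encodes ERdj4, a co-chaperone of BiP that is induced by spliced XBP1 and holds IRE1 in check. It was at 24.7, 26.1 and 26.8 CPM in young and at 34.4, 35.3 and 35.9 CPM in aged replicates 1, 2 and 3. The 3 aged libraries lay above the 3 young libraries with a gap larger than the spread in either group. The means were 25.9 ± 1.06 and 35.2 ± 0.733 CPM (SD, n = 3 each), a fold of 1.36 or a log2 fold change of 0.44 (SE 0.13, 95% interval 0.13 to 0.75). The unadjusted p was 0.0116 and the adjusted p 0.383 from edgeR, and the exact two-sided permutation test gave p = 0.1, the smallest that 3 libraries against 3 allow. With 1 library left out the log2 fold change stayed between 0.42 and 0.48, and was 0.42 without young replicate 1. On the FPKM scale the groups also stayed apart, at 9.21, 10.02 and 10.5 FPKM in young and 11.5, 11.8 and 11.3 FPKM in aged replicates 1, 2 and 3, but the difference was smaller, 0.20 on log2(FPKM + 1) with an unadjusted p of 0.143 from limma. The adjusted p of Dnajb9 ranged from 0.147 (DESeq2) to 0.765 over the alternatives. As seen in its window above, Dnajb9 carries CCACG but none of the longer motifs there.

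Hspa5 (ENSMUSG00000026864, chr2:34771970-34777547, plus strand) encodes BiP, the main chaperone of the ER lumen and the usual readout of the response, and its window holds ERSE and the UPRE core. It was at 297, 144 and 371 CPM in young and at 170, 328 and 376 CPM in aged replicates 1, 2 and 3. Each group held 1 low library, young replicate 2 and aged replicate 1, so the groups overlapped over nearly their whole range. The means were 271 ± 116 and 291 ± 107 CPM (SD, n = 3 each), with a log2 fold change of 0.11 (SE 0.41, 95% interval -0.85 to 1.06, edgeR adjusted p = 0.941). The sign turned without young replicate 2 (-0.18), without aged replicate 3 (-0.12) and on log2(FPKM + 1) (-0.08), while the value was 0.42 without young replicate 3, 0.38 without aged replicate 1, 0.19 without young replicate 1 and 0.013 without aged replicate 2. With an interval of this width, a difference of moderate size in either direction was not detectable in these libraries.

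Chaperone genes differed in aged replicate 1, where Hspa5 was low. Hsp90b1, the ER form of HSP90, was at 509, 395 and 461 CPM in young and at 635, 481 and 588 CPM in aged replicates 1, 2 and 3, and Calr, a calcium-binding chaperone of glycoproteins, was also highest in aged replicate 1, at 869 CPM. Hyou1, a lumenal chaperone related to HSP70, had its lowest value there, at 27.3 CPM against 28.97 and 39.1 CPM in the other aged libraries. Hsp90b1, Calr and Hyou1 are named here after their values were seen. The ratio of Hspa5 to Hsp90b1 was 0.582, 0.364 and 0.805 in young and 0.268, 0.683 and 0.639 in aged replicates 1, 2 and 3, so its lowest and its highest value came from different age groups. Of the 24 ER chaperone genes tested beside these members, 15 were highest in aged replicate 1. The share of all genes highest in that library is not given here. In aged replicate 1, 5 fibroblast markers (Pdgfra, Dcn, Lum, Col1a1 and Col3a1) also had their highest sum (8397 against 2803 to 5538 CPM). None of those markers was at 0, and their part in the chaperone values was not tested.

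Pdia4 (ENSMUSG00000025823, chr6:47796141-47813430, minus strand) encodes a disulfide isomerase of the ER lumen. It was at 106, 83.9 and 102 CPM in young and at 127, 91.5 and 109 CPM in aged replicates 1, 2 and 3. Like 15 of the 24 other chaperone genes it was highest in aged replicate 1, and the groups overlapped. The means were 97.1 ± 11.6 and 109 ± 17.6 CPM (SD, n = 3 each) with a log2 fold change of 0.17 (SE 0.18, edgeR adjusted p = 0.758), which was 0.044 without aged replicate 1, 0.080 without young replicate 2, 0.28 without aged replicate 2 and -0.06 on log2(FPKM + 1). Herpud1 (ENSMUSG00000031770, chr8:94386438-94395377, plus strand) encodes a membrane protein of ER-associated degradation, and its window holds both an ER element and a C/EBP-ATF element. It was at 58.1, 95.5 and 77.7 CPM in young and at 81.8, 71.9 and 92.9 CPM in aged replicates 1, 2 and 3. Both the lowest and the highest library were young. Its means were 77.1 ± 18.7 and 82.2 ± 10.5 CPM (SD, n = 3 each), and its log2 fold change of 0.092 (SE 0.21, edgeR adjusted p = 0.894) became -0.067 without young replicate 1, -0.0023 without aged replicate 3, 0.28 without young replicate 2, 0.18 without aged replicate 2 and -0.10 on log2(FPKM + 1).

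**Figure D4:**
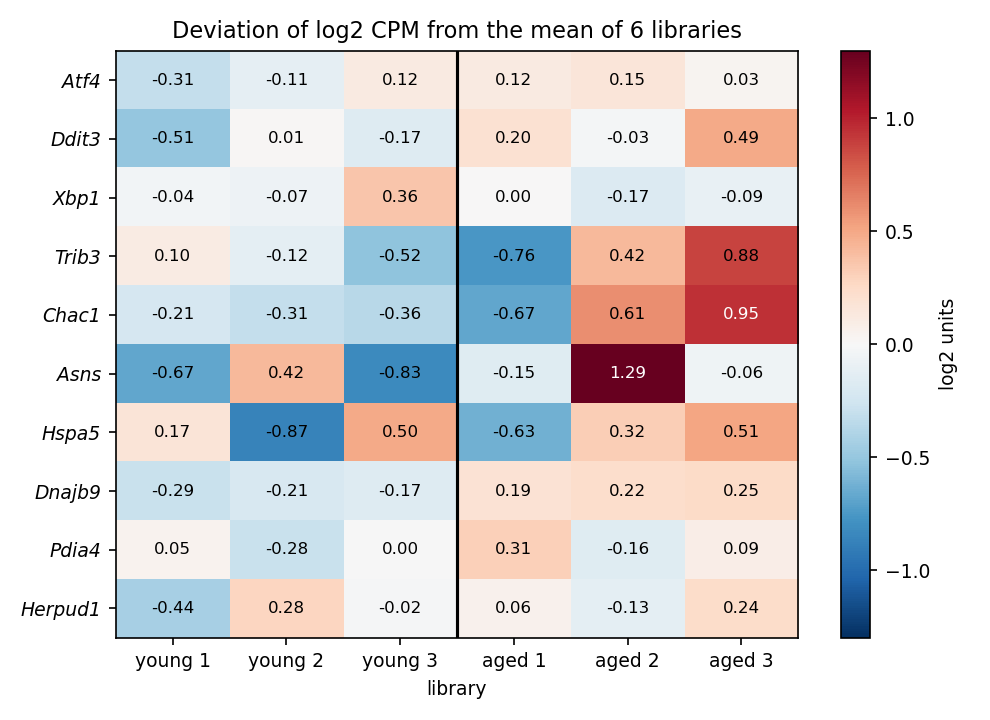
Deviation of log2 CPM from the mean of the 6 libraries for each gene (rows) and library (columns), blue below and red above the mean. Asns in aged replicate 2 (1.29) and Hspa5 in young replicate 2 (-0.87) are the extremes, while Dnajb9 stays between -0.29 and 0.25.

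Read by library, aged replicate 3 was above the gene's own mean for 8 of the 10 genes and held the highest value of 5 of them (Ddit3, Trib3, Chac1, Hspa5 and Dnajb9). The same library had the highest endothelial sum (1563 CPM) and mitochondrial share (30.4%), whose part in these values was not tested. Aged replicates 1 and 2 were above the mean for 6 genes each and the young libraries for 3 genes each. The same shares over all genes are not given here. Young replicate 1 held the lowest value of 4 genes (Atf4, Ddit3, Herpud1 and Dnajb9) and the highest of 0. This is the library with Xist, and its clock genes also stood apart, with Arntl at 49.8 CPM against 0.747 to 8.14 elsewhere and Dbp at 10.1 CPM against 125 to 436. Their part in these values was not tested. The ratio of highest to lowest library ran from 1.37 for Atf4, 1.45 for Dnajb9 and 1.45 for Xbp1 to 3.19 for Trib3, 3.31 for Chac1 and 4.44 for Asns. It was 1.51 for Pdia4, 1.64 for Herpud1 and 2.61 for Hspa5, with Ddit3 between the last pair. The median of this ratio over 15942 genes was 1.96, with 5 of the 10 genes above it and 5 below.

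The other genes of these pathways were read in 8 lists with 145 genes, of which 139 were tested. By edgeR 0 of the 139 had an adjusted p below 0.05. At an unadjusted p below 0.05, 10 (7.19%) were higher and 7 (5.04%) lower in aged aorta, beside 5.56% and 4.82% of all genes, and the median log2 fold change was 0.085. The count of 17 became 31 without aged replicate 2, 11 without young replicate 2 or young replicate 3, and 26 with limma on log2(FPKM + 0.1). By the shares at an unadjusted p below 0.05 the lists as a whole were near the background. All aged libraries lay above all young ones for 18 of the 139 genes and below for 14, beside 7.74% and 8.78% of all genes. Both were larger shares than those of all genes, and no set test was run. The lists were written with earlier results of these data known. Their shares, here and list by list below, are therefore no independent comparison with all genes.

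**Figure D5:**
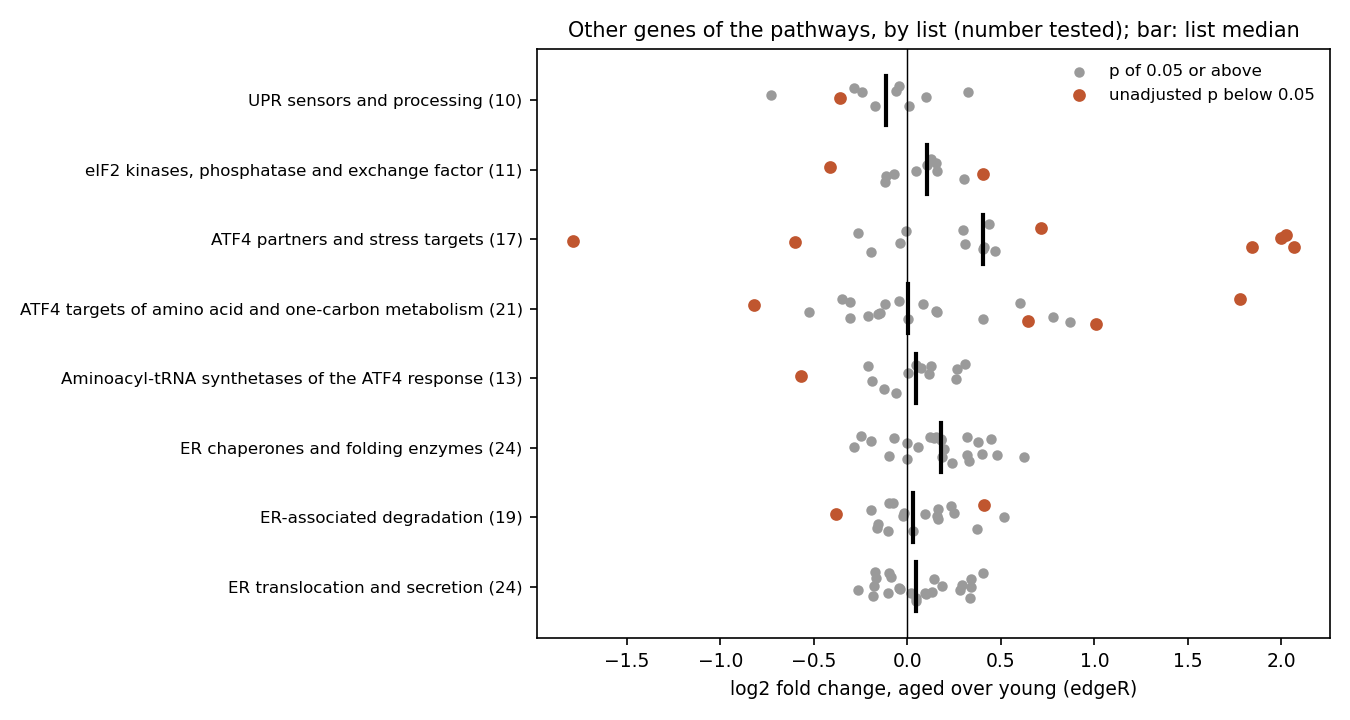
Log2 fold change of aged over young aorta for each of the 139 tested genes of 8 pathway lists (points, with the number tested in parentheses), orange where the unadjusted p from edgeR was below 0.05, and the list median as a black bar. The ATF4 partner list reaches from -1.79 to 2.07 with a median of 0.41, while the ER chaperone list (median 0.18) holds no orange point.

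In the list of upstream sensors and related factors most genes had a negative log2 fold change, but the sensors themselves overlapped between the groups. Ern1, which encodes IRE1, had 0.011, Eif2ak3, which encodes PERK, had -0.047 and Atf6 had -0.17. Their unadjusted p from edgeR was 0.967, 0.796 and 0.333. Of 10 tested genes among the ER sensors, their proteases and related factors, 3 were higher and 7 lower, with a median log2 fold change of -0.12. All aged libraries lay below all young ones for 4 of the 10 (Atf6b, Mbtps1, Creb3l2 and Creb3l4), beside 8.78% of all genes, and above for 0, beside 7.74%. By edgeR 1 was lower at an unadjusted p below 0.05, beside 4.82% of all genes. This was Atf6b, a relative of the sensor ATF6, at 46.3, 48.6 and 47.8 CPM in young and 42.4, 34.8 and 33.9 CPM in aged replicates 1, 2 and 3, with a log2 fold change of -0.36 (edgeR unadjusted p = 0.0458). Creb3l2 and Creb3l4, membrane-bound factors of the same kind, had values of -0.28 and -0.73. Among 11 genes for the kinases, phosphatase subunits and exchange factor of eIF2, 7 were higher and 4 lower with a median of 0.10. All aged libraries lay above all young ones for 1 of the 11 and below for 1, beside 7.74% and 8.78% of all genes. Eif2b2, a subunit of the exchange factor, had a log2 fold change of 0.40 (edgeR unadjusted p = 0.0317) and Eif2ak4, the kinase GCN2 that senses uncharged tRNA, had -0.41 (edgeR unadjusted p = 0.0476). Ppp1r15a, the stress-induced phosphatase subunit GADD34, had 0.30 and overlapped between the groups.

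The list of ATF4 partners and stress targets had the widest differences. Of 17 tested genes, 11 were higher and 6 lower, and the median was 0.41. At an unadjusted p below 0.05 were 5 of the higher and 2 of the lower genes, beside 5.56% and 4.82% of all genes. All aged libraries lay above all young ones for 6 genes and below for 2, beside 7.74% and 8.78% of all genes. Stc2, a secreted glycoprotein induced by PERK signalling, was at 6.13, 8.65 and 10.7 CPM in young and 22.3, 38.2 and 31.0 CPM in aged replicates 1, 2 and 3. Its groups did not overlap, and its log2 fold change was 1.85 (SE 0.29, edgeR adjusted p = 0.259). Cebpb, a partner of ATF4 that also acts in inflammation and fat cells, was at 5.49, 5.52 and 4.90 CPM in young and 15.98, 34.1 and 14.8 CPM in aged replicates 1, 2 and 3. Atf5, a factor that like ATF4 is regulated at translation, was at 93.5, 87.7 and 83.1 CPM in young and 164, 123 and 147 CPM in aged replicates 1, 2 and 3, with a log2 fold change of 0.71 (SE 0.16, edgeR adjusted p = 0.372). The other genes at an unadjusted p below 0.05 were Ddit4, an inhibitor of mTOR, Gdf15, a stress cytokine at 2.62 CPM or less, and Tnfrsf10b, a death receptor, with log2 fold changes of 2.07 for Gdf15 and -0.60 for Tnfrsf10b. Ddit4 was at 7.68, 21.1 and 7.93 CPM in young and 13.5, 72.9 and 60.1 CPM in aged replicates 1, 2 and 3. Of the 7 genes at that limit, DESeq2 called Stc2, Cebpb, Atf5, Atf3 and Ddit4 but not Gdf15 or Tnfrsf10b, and edgeR called Cebpb without aged replicate 2. At the other end, Atf3, a stress and early response gene that ATF4 can induce, was at 69.2, 50.2 and 92.0 CPM in young and 33.8, 19.7 and 7.75 CPM in aged replicates 1, 2 and 3, with a log2 fold change of -1.79 (edgeR unadjusted p = 0.00877). Atf3, Ddit4, Gdf15 and Tnfrsf10b are named after their values were seen. A sum of 6 immediate early genes, which respond to handling of tissue, was 432 to 1199 CPM in young and 541 to 1253 CPM in aged aorta, and its part in the Atf3 values was not tested.

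Genes of amino acid supply, to which Asns belongs by function, were split. Of 21 tested genes for amino acid and one-carbon metabolism, 11 were higher and 10 lower, with a median of 0.0039. At an unadjusted p below 0.05 were 3 of the higher and 1 of the lower genes, beside 5.56% and 4.82% of all genes. All aged libraries lay above all young ones for 4 genes and below for 4, beside 7.74% and 8.78% of all genes. Mthfd2, a mitochondrial enzyme of one-carbon metabolism, was at 5.04, 5.14 and 7.20 CPM in young and 10.02, 35.8 and 13.7 CPM in aged replicates 1, 2 and 3, and had its highest value in the same library as Asns. Slc3a2, a subunit of several amino acid transporters, was at 37.1, 35.6 and 43.6 CPM in young and 54.3, 67.7 and 59.6 CPM in aged replicates 1, 2 and 3, without overlap. Slc6a9, a glycine transporter, went the other way, with 52.1, 69.7 and 56.96 CPM in young and 33.4, 30.5 and 37.3 CPM in aged replicates 1, 2 and 3. The log2 fold changes were 1.78 for Mthfd2, 0.64 for Slc3a2 and -0.82 for Slc6a9, with adjusted p of 0.377, 0.377 and 0.360 from edgeR, and DESeq2 called Mthfd2 and Slc6a9. Without aged replicate 2 the value of Mthfd2 was 1.03. The remaining gene at an unadjusted p below 0.05 was Slc7a5, the transporter partner of Slc3a2, with a log2 fold change of 1.01, named after its value was seen. Of 13 genes for tRNA charging, 8 were higher and 5 lower with a median of 0.047. At an unadjusted p below 0.05 were 0 of the higher and 1 of the lower genes, beside 5.56% and 4.82% of all genes. All aged libraries lay above all young ones for 3 genes and below for 1, beside 7.74% and 8.78% of all genes. Iars, which charges isoleucine tRNA, had a log2 fold change of -0.57 (edgeR unadjusted p = 0.0304), and the enzymes for asparagine and serine tRNA, Nars and Sars, had 0.26 and 0.31.

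The 3 ER lists to which Hspa5, Pdia4, Dnajb9 and Herpud1 belong by function held 2 genes at an unadjusted p below 0.05 out of 67 tested. Over all genes 1723 of 16612 were at that limit, which is a larger share. Of 24 chaperones and folding enzymes, 18 were higher and 6 lower in aged aorta, with a median of 0.18, and 0 were at an unadjusted p below 0.05. All aged libraries lay above all young ones for 3 of the 24 and below for 0, beside 7.74% and 8.78% of all genes. Ppib, Cnpy2 and Pdia3 had the smallest p, with log2 fold changes of 0.48, 0.40 and 0.38, and all 3 were highest in aged replicate 1. Without that library they were 0.18 for Ppib, 0.18 for Cnpy2 and 0.23 for Pdia3. Of 19 genes of ER-associated degradation, 10 were higher and 9 lower with a median of 0.032. All aged libraries lay above all young ones for 1 of the 19 and below for 1. Ube2j1, a ubiquitin-conjugating enzyme of the ER membrane, was at 70.3, 65.3 and 70.2 CPM in young and 86.5, 96.1 and 91.1 CPM in aged replicates 1, 2 and 3, with a log2 fold change of 0.41 (edgeR unadjusted p = 0.0178). Faf2, which recruits the extraction machinery, had -0.38 (edgeR unadjusted p = 0.0296), and Os9, a lectin, had 0.37, which was 0.20 without aged replicate 1 and 0.58 without aged replicate 2. Of 24 genes for translocation and transport out of the ER, 14 were higher and 10 lower with a median of 0.046. At an unadjusted p below 0.05 were 0 of them. All aged libraries lay above all young ones for 0 and below for 1. In aged replicate 1, 13 were highest, and the share of all genes highest there is not given here. The values were 0.41 for Sec61b, 0.34 for Mcfd2 and 0.28 for Ssr3. Without aged replicate 1 they were 0.15 for Sec61b, 0.25 for Mcfd2 and 0.18 for Ssr3.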

How the data were processed

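RNA of whole aorta was sequenced single-ended in 3 young and 3 aged libraries. The authors deposited a table of counts of reads per gene, without normalization, and a table of FPKM, in which counts are divided by gene length and library size. The submitters' processing notes name the build mm10. The aligner, the counting tool, the use of strand and the treatment of reads that map to several genes are not given in the sources used here, and short reads may be split between near-identical copies of a gene. Coordinates are those of GENCODE M21 on GRCm38, and promoter windows are from RefSeq.

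Groups followed the labels. Counts were analysed in R 4.3.3 with edgeR 4.0.16, using filterByExpr (minimum count 10, minimum total count 15), TMM factors and the quasi-likelihood test of aged against young, with Benjamini-Hochberg adjustment over all 16612 genes tested and a threshold of 0.05. CPM used the TMM factors. Intervals are at 95%. Exact permutation tests were two-sided on log2 CPM. All 10 genes are named, with the 3 genes of smallest unadjusted p in each pathway list. Atf3, Ddit4, Gdf15, Tnfrsf10b, Slc7a5, Mbtps1, Ern1, Eif2ak3, Atf6, Arntl, Dbp, Hyou1, Hsp90b1 and Calr were added after their values were seen. Genes and lists were chosen with earlier results of these data known, and the lists were written from general knowledge.

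Results were recomputed with RLE size factors, with genes of at least 1 count in total, with genes of 10 or more counts in each library, with a replicate block, with DESeq2 1.42.0, with limma 3.58.1 on log2(FPKM + 1) or log2(FPKM + 0.1), with robust fitting, without mitochondrial genes, and without each library in turn.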

Additional observations from a re-analysis of the deposited data

How the results depend on the processing

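Of the 10 genes, 0 were called at an adjusted p below 0.05 under every alternative run. Over all genes edgeR called 0, DESeq2 called 338, and leaving out single libraries gave 0 to 110, with 110 in the absence of aged replicate 2. The number of the 10 genes at an unadjusted p below 0.05 was 1 (Dnajb9), became 0 with limma on log2(FPKM + 1) and 0 with limma on log2(FPKM + 0.1), and lay between 1 and 2 with 1 library left out, with Ddit3 added without young replicate 2 or aged replicate 2. With the replicate block it was 2, as Asns was added (log2 fold change 0.73, unadjusted p = 0.0291 from edgeR). By their labels, same-numbered libraries share only a number. The correlations of their deviations were 0.0786, 0.117 and 0.0957, where the highest with another number were 0.0549, 0.0116 and 0.0549. Each thus correlated best with its own number, which is a hint from the data and not from the design. Such correlations cannot settle whether libraries were paired. Of the genes in the pathway lists, 17 were at an unadjusted p below 0.05, 26 with limma on log2(FPKM + 0.1) and 11 to 31 when single libraries were left out. With limma the signs reversed for Atf4 (-0.017 with a pseudocount of 1, -0.018 with 0.1), Hspa5 (-0.084 and -0.085), Herpud1 (-0.10 and -0.11) and Pdia4 (-0.057 and -0.059), where the median of all genes was -0.12 and -0.19. With 1 library left out Hspa5 lay between -0.18 and 0.42, with -0.18 without young replicate 2 and -0.12 without aged replicate 3, and Herpud1 between -0.067 (without young replicate 1) and 0.28, with -0.0023 without aged replicate 3. What caused these changes was not tested. Of the 24 other genes named by rule, 0 reversed, 5 passed by DESeq2 and 1 without aged replicate 2. Of 7 genes named after their values were seen (Atf3, Ddit4, Gdf15, Tnfrsf10b, Slc7a5, Hsp90b1 and Calr), 0 reversed and 2 passed by DESeq2. The other genes so named (Mbtps1, Ern1, Eif2ak3, Atf6, Arntl, Dbp and Hyou1) were not counted over the alternatives. Chac1, at 16 to 47 counts per library, had the fewest counts of the 10 genes.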
